A study of Rattus norvegicus with 9 samples.

Results

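The genes of the mitochondrial ribosomal proteins were taken by symbol, as every gene whose symbol starts with Mrpl (large subunit) or Mrps (small subunit) and that has a probe set of its own on the array. A probe set is a group of short probes read together as 1 value. This gave 73 genes, 46 of the large and 27 of the small subunit, out of 14217 genes with a probe set annotated to 1 gene. They had 97 such probe sets, and each gene was represented by the one with the highest mean over the 9 arrays. All 73 passed the minimum mean log2 intensity of 5, as did 10337 genes in all. The probe sets used for them were read well above that minimum, with means over the 9 arrays between 6.53 and 10.8. Mrpl9, Mrpl11, Mrpl24, Mrps10 and Mrps36 had no probe set annotated to 1 gene and were not analysed here.

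Mitochondria carry their own ribosome, a relative of the bacterial one, which translates the few messenger RNAs made from mitochondrial DNA. Those messages encode core subunits of the respiratory chain and of the ATP synthase. The proteins of this ribosome are all encoded in the nucleus, made on cytosolic ribosomes and imported, whereas its ribosomal RNAs come from mitochondrial DNA. Some of them have a bacterial counterpart, and the others are found only in mitochondria. The tubules of the kidney are rich in mitochondria, which power the reabsorption of salt and solutes.

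RNA was measured in the whole right kidney of 9 Sprague-Dawley rats, an outbred laboratory stock, bought at 8 weeks of age and acclimated for 1 week. Each rat was injected intraperitoneally once a day for 7 days with saline vehicle or with CMS, short for colistin methanesulfonate sodium, at 25 or 50 mg/kg. CMS is converted in the body to colistin, a polymyxin antibiotic that acts on the outer membrane of bacteria. The groups are called vehicle, CMS25 and CMS50, with 3 rats and 3 arrays each, labelled as biological replicates. All 3 groups shared strain, route and days of injection, and sex and batch are not given in the labels. Per the labels, vehicle kidneys had no lesion, CMS25 kidneys had dilated tubules with basophilia, and those given CMS50 had casts, tubular degeneration and necrosis. Values are log2 intensities, so a difference of 1 is a 2-fold difference. In a whole kidney, fewer cells of a type and less RNA per cell cannot be told apart.

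Correlations between arrays ran from 0.916 to 0.989 over the genes tested. Defining markers of the proximal tubule were all 10 above the minimum, with 1 called higher and 3 lower in CMS50 against vehicle, and their mean log2 level was 11.97 to 12.22 in vehicle, 12.13 to 12.28 in CMS25 and 11.89 to 12.07 in CMS50. Markers of macrophages lay higher in CMS50, with 9 of 9 tested called and a mean level of 7.28 to 8.19 against 6.16 to 6.32 in vehicle and 5.85 to 6.39 in CMS25. Fibroblast markers (5 of 6 called higher, 7.85 to 8.88 against 6.98 to 7.18) and proliferation markers (5 of 5 called higher, 6.42 to 7.09 against 4.82 to 5.36) also lay higher, and 4 of 6 markers of the thick ascending limb and distal tubule were called lower (9.13 to 10.29 against 10.55 to 10.65). Podocyte markers (2 of 4 called lower, 7.23 to 7.71 against 7.93 to 8.72) and collecting duct markers (2 of 6 called lower, 8.09 to 8.84 against 8.97 to 9.29) lay lower too. Of 4 endothelial markers 1 was called lower (8.28 to 8.36 against 8.56 to 8.73). Of 5 lymphocyte markers on the array, 1 passed the minimum and was called higher. Of 5 fat markers 3 passed the minimum, and 0 were called in CMS50 or CMS25 against vehicle. In CMS50 minus CMS25, 1 of the 3 was called lower, namely Adipoq (-1.20, limma adjusted p = 0.0137). The mean fat marker level was 4.90 to 5.32 in vehicle, 4.82 to 7.35 in CMS25 and 5.11 to 5.31 in CMS50. CMS25 replicate 1 read 9.52 for Fabp4, 7.92 for Cidea and 7.44 for Adipoq, each the highest of the 9 arrays. As a reading of RNA quality, the 3′ control probe set of beta-actin exceeded the 5′ one on the log2 scale by 2.98 ± 0.155 in vehicle, 3.17 ± 0.12 in CMS25 and 3.58 ± 0.0854 in CMS50 (SD, n = 3). For GAPDH the reading was 0.542 ± 0.0286, 0.698 ± 0.209 and 0.816 ± 0.0622. Apart from the proximal tubule and fat levels, these marker levels and readings lay apart from vehicle in CMS50. Their part in the CMS50 results below, and that of the fat markers in the CMS25 results, was not tested.

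The higher dose was compared with vehicle first. A gene was called when its adjusted p from limma, with Benjamini-Hochberg adjustment over all 10337 genes, was under 0.05. Most genes of the mitochondrial ribosome were not called. Of the 73 genes, 9 fell and 2 rose, which is 15.1%, beside 31.1% of all genes tested. In the large subunit 8 of 46 fell and 2 rose, and in the small subunit 1 of 27 fell and 0 rose, so that 21.7% and 3.70% were called. Whether the subunits differ in this share was not tested. Over all genes, calls leaned to rises, with 19.6% called higher and 11.4% lower, while 2.74% of the ribosome genes were called higher and 12.3% lower. The lean of all genes depended on scaling, with 1457 called higher and 1638 lower when arrays were centred on their medians, in place of 2028 and 1183.

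The changes were small. They ran from -0.55 to 0.40, and 0 of the 73 genes changed by 1 log2 unit or more, against 6.13% of all genes tested. The median change was -0.10 in the large and -0.10 in the small subunit, where all genes tested had a median of 0.05, and 33 of 46 large subunit genes and 20 of 27 small subunit genes had a negative difference. The median size of a change without regard to sign was 0.140 for the 73 genes and 0.237 for all genes tested. The within-group SD had a median of 0.0948 in these genes and 0.148 over all genes. These genes were also read at higher intensity, with a median mean log2 value of 9.08 against 7.59 for all genes tested. The part of intensity in the smaller changes and SD was not tested. The 95% interval of the change lay within 1 log2 unit of 0 for all 73 genes and within 0.5 for 56 of them. The CMS50 arrays lay wholly above the vehicle arrays for 14 of the 73 genes and wholly below for 24, beside 30.6% and 19.1% of all genes tested.

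**Figure D1:**
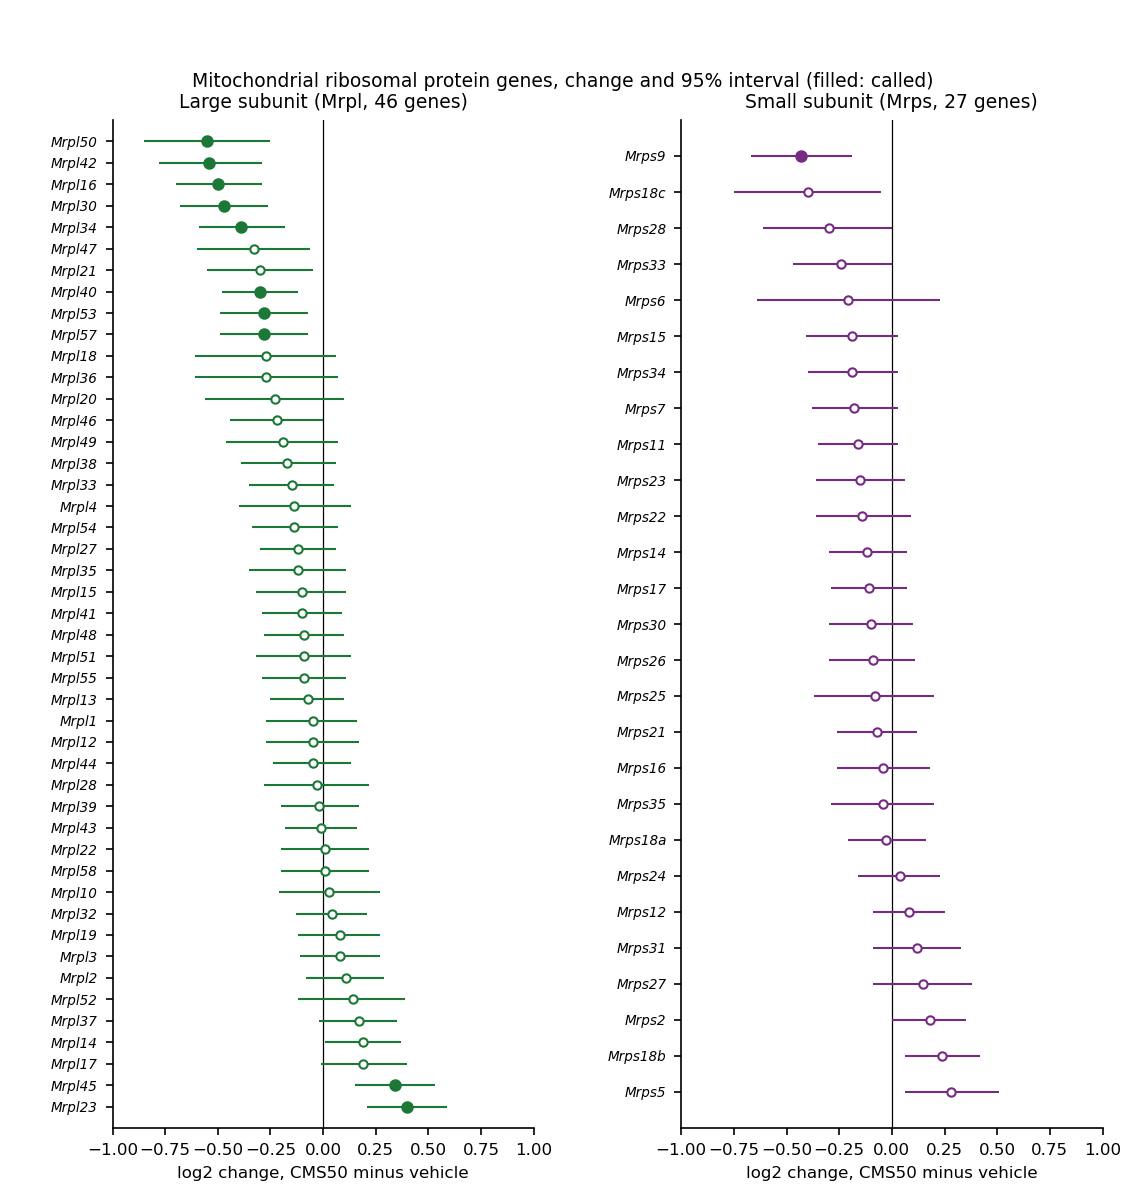
Log2 change of each mitochondrial ribosomal protein gene in CMS50 minus vehicle, with its 95% interval, for the large subunit on the left and the small subunit on the right. Filled points mark the 11 called genes. Most points lie slightly left of 0 and none passes -0.55 or 0.40.

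The lowest value belonged to Mrpl50 (probe set 1376585_at), a protein of the large subunit with no bacterial counterpart. Its log2 intensities were 9.51, 9.46 and 9.34 in vehicle, 9.34, 9.50 and 9.55 in CMS25, and 8.61, 8.91 and 9.13 in CMS50. All 3 CMS50 arrays lay below all 6 others, which overlapped each other. The fall was 0.55 on the log2 scale, a 1.46-fold lower level (SE 0.13, limma adjusted p = 0.0147). Mrpl42 (1371853_at), also specific to mitochondria, read 9.27, 9.28 and 9.11 in vehicle, 9.08, 9.11 and 9.04 in CMS25 and 8.56, 8.58 and 8.91 in CMS50. CMS50 replicates 1 and 2 were close together and replicate 3 lay nearer to the other groups. The difference was -0.54 (SE 0.11, adjusted p = 0.00773).

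Mrpl16 (1371967_at) is a core protein near the transfer RNA sites of the large subunit. It read 10.05, 9.92 and 9.94 in vehicle, 9.97, 9.89 and 10.08 in CMS25 and 9.36, 9.47 and 9.59 in CMS50, and fell by 0.50 on the log2 scale (SE 0.09, adjusted p = 0.00585). That is a 1.41-fold lower level, with vehicle and CMS25 overlapping. Mrpl30 (1398983_at), another protein with a bacterial counterpart, read 8.62, 8.68 and 8.59 in vehicle, 8.60, 8.55 and 8.52 in CMS25 and 8.07, 8.07 and 8.34 in CMS50. Its fall was 0.47 (SE 0.09, adjusted p = 0.00722). Mrpl34 (1371604_at), which also has a bacterial counterpart, read 9.40, 9.24 and 9.24 in vehicle, 9.23, 9.22 and 9.17 in CMS25 and 8.83, 8.84 and 9.06 in CMS50. The CMS25 arrays lay just under the vehicle arrays and the CMS50 arrays lay well below both (change -0.39, SE 0.09, adjusted p = 0.0149). Leaving out vehicle replicate 1 took the adjusted p of Mrpl34 to 0.0536, and leaving out the first or second CMS50 array took it to 0.0576 or 0.059.

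The remaining falls in the large subunit were smaller. Mrpl40 (1388517_at), part of the central protuberance where the large subunit meets the small one, read 8.06, 7.99 and 8.05 in vehicle, 8.13, 7.98 and 7.99 in CMS25 and 7.76, 7.68 and 7.77 in CMS50. It fell by 0.30 (SE 0.08, adjusted p = 0.0204), with CMS50 arrays close together. Mrpl53 (1367477_at), a mitochondrion-specific protein near the stalk that recruits translation factors, was at 10.77 ± 0.04 in vehicle, 10.85 ± 0.13 in CMS25 and 10.49 ± 0.08 in CMS50 (SD, n = 3). Mrpl57 (1372948_at), specific to mitochondria too, was at 9.52 ± 0.05, 9.51 ± 0.12 and 9.24 ± 0.10 in the same order. Each fell by 0.28 (SE 0.09), with adjusted p-values of 0.0446 for Mrpl53 and 0.0452 for Mrpl57 from limma. The 3 calls were near the threshold. Mrpl40 lost its call without any 1 of the vehicle replicates or without CMS50 replicate 1 or 2 (adjusted p = 0.05 to 0.0762). Mrpl53 and Mrpl57 lost theirs without any 1 of these 5 arrays or CMS25 replicate 1 (adjusted p = 0.0521 to 0.131 and 0.0592 to 0.135), and without the intensity minimum (0.0583 and 0.0588). Cyclic loess scaling took the adjusted p of Mrpl53 to 0.0939, and the mean of all probe sets took that of Mrpl57 to 0.0851.

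In the small subunit the called gene was Mrps9 (1396142_at), a protein of the head near the decoding site. Its values ran from 8.99 to 9.25 in vehicle and were 9.06, 9.05 and 9.24 in CMS25 and 8.56, 8.63 and 8.77 in CMS50. Vehicle and CMS25 each held 1 high array, and all CMS50 arrays lay below them. Mrps9 fell by 0.43 (SE 0.11, adjusted p = 0.0162), and it was no longer called when the second vehicle array (0.0609) or the first or second CMS50 array (0.0621 and 0.0557) was left out.

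Both rises belonged to proteins at the mouth of the polypeptide exit tunnel, through which the new chain leaves the large subunit. Mrpl23 (1368004_at), on the rim of the tunnel, read 9.07, 9.22 and 9.19 in vehicle, 9.16, 9.09 and 9.20 in CMS25 and 9.64, 9.56 and 9.47 in CMS50. It rose by 0.40 on the log2 scale, to 1.32-fold the vehicle level (SE 0.08, adjusted p = 0.00887). Mrpl45 (1371790_at), which anchors the ribosome to the inner membrane at the tunnel, read 8.32, 8.30 and 8.33 in vehicle, 8.23, 8.07 and 8.32 in CMS25 and 8.64, 8.70 and 8.63 in CMS50. All 3 CMS50 arrays lay above the 6 others and within 0.07 of each other. Its rise was 0.34 on the log2 scale, to 1.27-fold the vehicle level (SE 0.08, adjusted p = 0.0171). The Mrpl45 call was lost when each array was centred on its median (change 0.25, adjusted p = 0.065), and when the second array of vehicle (0.0584) or of CMS50 (0.0618) was left out.

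For all 11 called genes the 3 CMS50 arrays and the 3 vehicle arrays did not overlap. The calls rest on the same arrays, so this is no separate finding. Over all 73 genes the arrays did not overlap for 38 (52.1%), beside 49.6% of all genes tested. CMS50 replicate 3 was the array nearest to vehicle: it was the highest of the CMS50 arrays in 9 of 9 falls and the lowest in 2 of 2 rises, and the highest in 41 of all 73 genes. Leaving out CMS50 replicate 2 left 5 large subunit genes called in place of 10, and leaving out CMS50 replicate 1 or vehicle replicate 1 or 2 left 6. In the small subunit 0 genes were called without vehicle replicate 2 or CMS50 replicate 1 or 2, 2 without CMS25 replicate 2, and 4 without CMS50 replicate 3. Over all genes, calls numbered 3211 as reported, and 2154 or 1852 when vehicle replicate 1 or 2 was left out. They numbered 1711, 1687 and 3546 without CMS50 replicate 1, 2 and 3. Mrpl16, Mrpl23, Mrpl30, Mrpl42 and Mrpl50 were called in every alternative run.

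**Figure D2:**
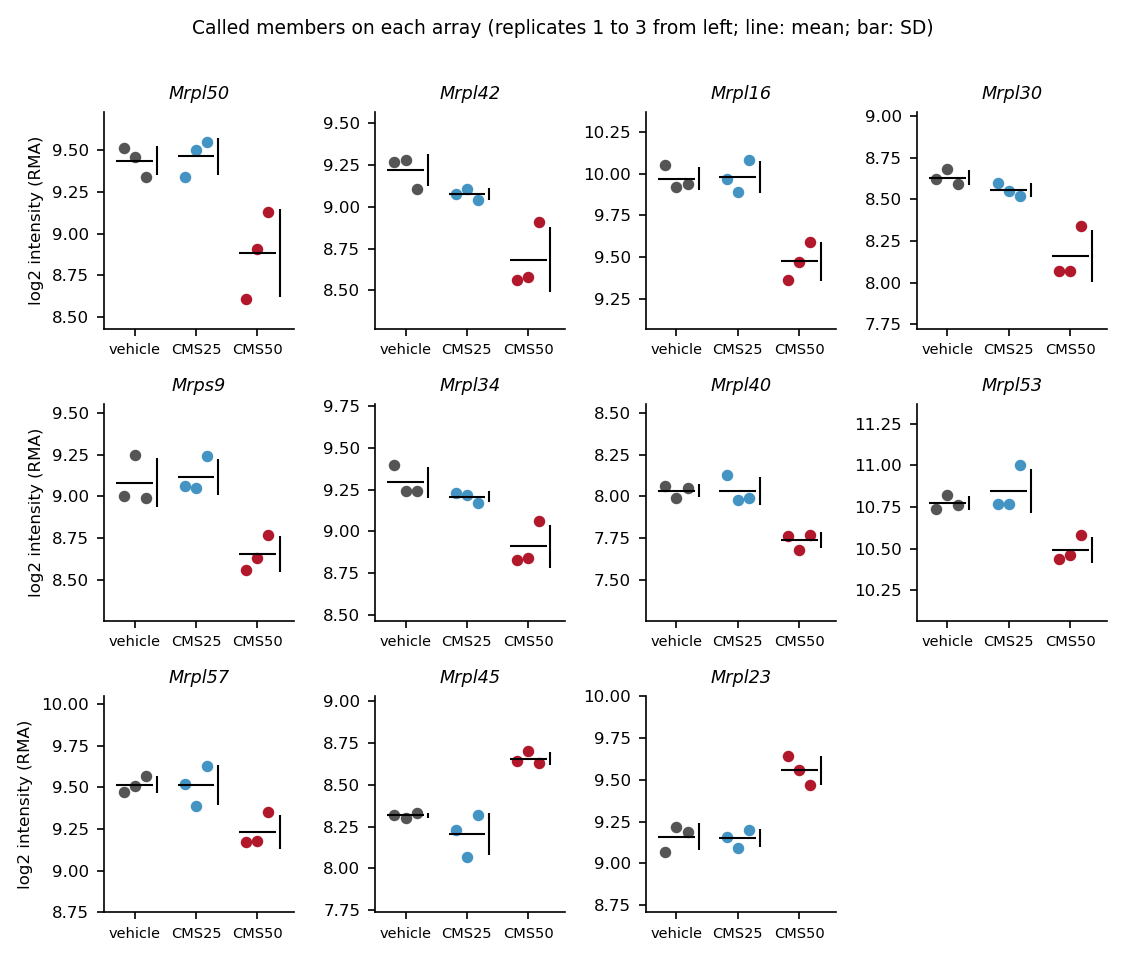
Log2 intensity of the 11 called genes on each array, with vehicle in grey, CMS25 in blue and CMS50 in red, a line at the group mean and a bar of 1 SD on either side. Vertical axes differ between panels but span the same range of log2 units. Vehicle and CMS25 lie together in most panels, the CMS50 arrays lie apart from vehicle in all 11, and CMS50 replicate 3 is the CMS50 array nearest to vehicle in all 11, by little for Mrpl40 and Mrpl45.

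The start regions of called genes are shown so that those of genes that fell and genes that rose can be compared. RefSeq windows in the rat build GRCr8, from 250 bases before to 50 bases after the annotated gene start, were found for 59 of the 73 genes, among them 8 of the 9 that fell and both that rose. Shown are the 5 largest falls with a window and the 2 rises. The Mrpl50 window is chr5:68668038-68668337 on the minus strand, the Mrpl42 window chr7:32028473-32028772 on the minus strand. The Mrpl30 window is chr9:47620977-47621276, that of Mrps9 chr9:52605428-52605727 and that of Mrpl34 chr16:18186197-18186496, all on the plus strand. The windows of the 2 genes that rose are chr1:207116680-207116979 for Mrpl23 and chr10:82804789-82805088 for Mrpl45, both on the plus strand. Each is written 5′ to 3′ on the gene's own strand, and capitals mark matches to the motifs named after them.
Mrpl50: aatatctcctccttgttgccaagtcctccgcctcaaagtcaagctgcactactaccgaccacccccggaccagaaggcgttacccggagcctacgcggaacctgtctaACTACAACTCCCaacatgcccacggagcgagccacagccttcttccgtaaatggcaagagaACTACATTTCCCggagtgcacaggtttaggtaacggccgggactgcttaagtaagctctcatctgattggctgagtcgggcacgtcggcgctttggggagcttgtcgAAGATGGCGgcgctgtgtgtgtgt
Mrpl42: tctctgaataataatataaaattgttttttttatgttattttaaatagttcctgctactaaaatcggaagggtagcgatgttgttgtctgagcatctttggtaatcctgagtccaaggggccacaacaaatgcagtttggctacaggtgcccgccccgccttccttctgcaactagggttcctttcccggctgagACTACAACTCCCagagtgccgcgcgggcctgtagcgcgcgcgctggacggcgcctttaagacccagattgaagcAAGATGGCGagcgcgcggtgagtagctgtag
Mrpl30: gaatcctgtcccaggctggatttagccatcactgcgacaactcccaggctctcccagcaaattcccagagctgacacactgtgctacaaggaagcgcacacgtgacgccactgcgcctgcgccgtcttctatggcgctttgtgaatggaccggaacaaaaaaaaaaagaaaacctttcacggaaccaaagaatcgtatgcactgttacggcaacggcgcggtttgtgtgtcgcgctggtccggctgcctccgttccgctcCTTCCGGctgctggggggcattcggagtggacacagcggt
Mrps9: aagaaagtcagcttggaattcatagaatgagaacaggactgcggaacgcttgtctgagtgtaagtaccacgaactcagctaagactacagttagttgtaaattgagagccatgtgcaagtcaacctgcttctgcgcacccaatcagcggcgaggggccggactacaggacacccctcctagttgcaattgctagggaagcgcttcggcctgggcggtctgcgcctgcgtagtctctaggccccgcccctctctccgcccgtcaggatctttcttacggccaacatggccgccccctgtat
Mrpl34: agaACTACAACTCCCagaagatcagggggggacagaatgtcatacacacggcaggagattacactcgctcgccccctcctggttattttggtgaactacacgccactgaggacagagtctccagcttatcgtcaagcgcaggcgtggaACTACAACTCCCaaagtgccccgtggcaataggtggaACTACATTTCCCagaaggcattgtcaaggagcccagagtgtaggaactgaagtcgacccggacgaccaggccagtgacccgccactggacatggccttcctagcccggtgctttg
Mrpl23: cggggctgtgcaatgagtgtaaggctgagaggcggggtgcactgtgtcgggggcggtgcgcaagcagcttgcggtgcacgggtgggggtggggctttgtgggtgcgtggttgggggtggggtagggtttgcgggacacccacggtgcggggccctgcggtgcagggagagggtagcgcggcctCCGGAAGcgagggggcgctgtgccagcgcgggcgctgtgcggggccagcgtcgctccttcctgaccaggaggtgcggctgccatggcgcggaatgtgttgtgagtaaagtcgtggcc
Mrpl45: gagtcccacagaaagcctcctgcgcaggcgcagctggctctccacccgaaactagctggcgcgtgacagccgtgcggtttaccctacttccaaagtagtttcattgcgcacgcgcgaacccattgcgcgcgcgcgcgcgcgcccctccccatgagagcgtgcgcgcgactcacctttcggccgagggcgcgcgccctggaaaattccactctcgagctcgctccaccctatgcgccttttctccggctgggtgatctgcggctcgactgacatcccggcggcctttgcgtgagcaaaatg
Motifs were searched on both strands as exact letters. CCGGAAG is bound by ETS factors such as GABPA, AAGATGGCG by YY1 and a longer palindrome by the factor NRF1, which are known regulators of nuclear genes for mitochondrial proteins, and AAGGTCA is the half-site of estrogen-related receptors. A core of ZNF143 sites, in capitals before the gene start in the Mrpl50, Mrpl42 and Mrpl34 windows, was added after the windows of called genes had been read, so its count in them is no independent finding. CCGGAAG and AAGATGGCG can overlap by their letters AAG.

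The ETS letters stood in 20 of 59 windows (33.9%), beside 18.4% of the windows of all genes tested and 9.22% of all windows in the table. The YY1 letters stood in 8 (13.6%, beside 3.99% and 1.93%), among them Mrpl50 and Mrpl42, where they began 27 and 20 bases after the gene start. The NRF1 letters stood in 4 (6.78%, beside 1.98% and 0.932%) and the half-site in 3 (5.08%, beside 2.83% and 4.37%). At least 1 of the ETS, YY1 and NRF1 motifs was in 28 of the 59 windows (47.5%), beside 22.8% of the windows of all genes tested. By direction in CMS50, this held for 5 of the 8 windows of genes that fell and 1 of 2 of those that rose. Among those not called it held for 22 of 49. These counts cover the exact letters only, and near spellings could change them. The ZNF143 letters stood in 4 windows (6.78%, beside 4.23% of all genes tested), 3 times in Mrpl34, 2 times in Mrpl50, and in Mrpl42 and Mrpl54. That is 3 of the 8 windows of genes that fell, and those of Mrpl30, Mrps9, Mrpl40, Mrpl53 and Mrpl57 held none. Among all genes called lower in CMS50 they were in 3.67% of windows, and among all called higher in 3.31%. The Mrpl23 window held 1 ETS motif 67 bases before the gene start, and none of these exact letters was found in the Mrpl45 window. The Mrpl45 window does hold GCGCACGCGC, a near spelling of the NRF1 letters, and the Mrpl57 window holds its reverse complement. Neither was counted, and the windows were not searched for this spelling. A match describes the sequence and is not evidence of binding.

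By position in the ribosome, the called genes were spread over several regions. In the polypeptide exit tunnel 2 of 6 genes rose and 0 fell, with a range of -0.33 to 0.40. That share of 33.3% is near the 31.1% of all genes tested that were called in either direction, and 19.6% of all genes were called higher. Whether the tunnel genes differ from all genes was not tested. In the central protuberance 0 of 8 rose and 1 fell, and the same counts held for 4 genes of the stalk, 4 around the peptidyl transferase centre, where peptide bonds are made, and 4 of the small subunit head. In the small subunit body 0 of 4 were called. Of 42 genes with a bacterial counterpart 1 rose and 4 fell, with a median of -0.10, and of 31 specific to mitochondria 1 rose and 5 fell, with a median of -0.09. These are shares of 11.9% and 19.4%, both under that of all genes. The classes follow the systematic names of the proteins. By these Mrps18a and Mrps18b count as specific to mitochondria, although the related Mrps18c counts as having a bacterial counterpart. Neither Mrps18a nor Mrps18b was called.

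Several proteins of known function were close to vehicle. Mrpl12, the mobile stalk protein that recruits translation GTPases, was at 10.14, 10.25 and 10.32 in vehicle and 10.09, 10.22 and 10.26 in CMS50, a difference of -0.05 (95% interval -0.27 to 0.17, adjusted p = 0.732). Its partner at the stalk base, Mrpl10, differed by 0.03 (-0.21 to 0.27), but its second probe set was at -0.32 (adjusted p = 0.103) and the mean of both gave -0.15. Mrpl3, a core protein beside the peptidyl transferase centre, differed by 0.08 (-0.11 to 0.27). Mrpl44, a ribonuclease III-like protein, differed by -0.05 (-0.24 to 0.13). Mrpl58, a peptidyl-tRNA hydrolase built into the large subunit, differed by 0.01 (-0.20 to 0.22). The intervals of these genes exclude a change of 1 log2 unit in either direction.

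In the small subunit, Mrps12, a protein of the decoding centre that affects accuracy, was at 9.09, 9.06 and 9.13 in vehicle and 9.13, 9.15 and 9.24 in CMS50, with a difference of 0.08 (-0.09 to 0.25, adjusted p = 0.457). Mrps7, in the head, differed by -0.18 (-0.38 to 0.03). Mrps16 and Mrps22, both needed to assemble the small subunit, differed by -0.04 (-0.26 to 0.18) and -0.14 (-0.36 to 0.09). With the mean of its probe sets, Mrps22 was at 0.02, but its second probe set had a mean of 3.61, under the intensity minimum. Mrps34, which stabilises the small subunit, was at 9.76, 9.81 and 9.75 in vehicle, 9.84, 10.02 and 9.84 in CMS25 and 9.47, 9.55 and 9.73 in CMS50, a difference from vehicle of -0.19 (-0.40 to 0.03, adjusted p = 0.160). The proteins of Mrps30 and Mrps18a sit in the large subunit despite their symbols, and these genes differed by -0.10 (-0.30 to 0.10) and -0.03 (-0.21 to 0.16). Counting them there left 10 calls among 48 large and 1 among 25 small subunit genes. When arrays were centred on their medians, Mrpl3, Mrpl10, Mrpl58 and Mrps12 changed sign, with values of -0.01, -0.06, -0.08 and -0.01.

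A second probe set was read for some genes. Of the 73, 18 had more than 1, with 24 further probe sets between them. Of these 16 reached the intensity minimum, and 12 of the 16 had the same sign in CMS50 minus vehicle as the one used. All 4 further probe sets of called genes had the same sign. That of Mrpl40 changed by -0.42 and that of Mrps9 by -0.32 (adjusted p = 0.0121 and 0.0467 in a fit of all probe sets), while those of Mrpl50 and Mrpl57 were at -0.53 and -0.11 and were not called (0.214 and 0.371). For 2 genes outside the naming rule, chosen here after their values were seen, a second probe set was called and the first was not. Mrps14 was at -0.37 on the second (0.0218) and -0.12 on the one used, and Mrps18c at -0.39 (0.03) and -0.40 (0.0805).

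At the lower dose no gene was called. In CMS25 minus vehicle 0 of 73 genes, and 0 of 10337 genes (0.0% of those tested), passed the threshold in limma, also under every alternative run. At an unadjusted p under 0.05 there were 1 of the 73 genes and 604 of all genes. The changes of the ribosome genes ran from -0.21 to 0.26, with medians of -0.03 in the large and -0.01 in the small subunit and -0.02 over all genes. The sign of these medians turned when arrays were centred (0.02 and 0.04). The 95% interval lay within 0.5 log2 units of 0 for 71 of the 73 genes. A change of 1 log2 unit was reached by 0 of the 73, beside 0.193% of all genes tested. The CMS25 arrays lay wholly above vehicle for 4 genes and wholly below for 3, beside 4.45% and 7.65% of all genes tested. The 11 genes called at the higher dose differed from vehicle by -0.14 to 0.08 in CMS25.

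The doses were also compared with each other, in a contrast that shares the CMS50 arrays with the first. In CMS50 minus CMS25, 12 of 73 genes were called (16.4%, beside 30.3% of all genes tested, 20.8% higher and 9.43% lower). In the large subunit 2 rose and 8 fell, and in the small subunit 0 rose and 2 fell. Mrpl45 and Mrpl23 were higher in CMS50 by 0.45 and 0.41 (SE 0.08 each, limma adjusted p = 0.00623 and 0.00851). Mrpl50, Mrpl16 and Mrps9 had the lowest values, at -0.58, -0.51 and -0.46 (adjusted p = 0.0126, 0.00558 and 0.0125). Mrpl30, Mrpl42 and Mrpl53 were at -0.40, -0.39 and -0.36 (adjusted p = 0.0144, 0.0253 and 0.019). The remaining 4 calls were Mrps34 (-0.32, adjusted p = 0.0339), Mrpl34 (-0.30, 0.0394), Mrpl40 (-0.30, 0.0213) and, outside the naming rule, Mrpl46 (-0.30, 0.0468), a protein of the central protuberance.

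Of the 11 genes called against vehicle, 10 were called in the same direction against CMS25. The other one was Mrpl57, at -0.27 (adjusted p = 0.0514). The medians of the large and small subunit were both -0.07, with 0.07 over all genes tested. The changes ran from -0.58 to 0.45, so 0 of the 73 reached 1 log2 unit, beside 5.79% of all genes. The CMS50 arrays lay wholly above the CMS25 arrays for 9 genes and wholly below for 17, beside 30.4% and 15.3% of all genes tested. Without CMS50 replicate 1 or 2, 4 large subunit genes were called in place of 10. The count was 6 without CMS25 replicate 3, and 5 when the vehicle arrays were left out of the fit. Over all genes, calls fell from 3128 to 1737 or 1569 without CMS50 replicate 1 or 2. They fell to 2008 without CMS25 replicate 3, and to 2165 without the vehicle arrays. In the small subunit 1 was called in place of 2 without any 1 of the arrays other than CMS50 replicate 3, whose removal gave 4. Mrpl30 lost its call without CMS50 replicate 1 (adjusted p = 0.0548) or 2 (0.059), Mrpl42 without any 1 of the CMS25 arrays or these 2 (0.0529 to 0.0922), and Mrpl53 without CMS25 replicate 3 or these 2 (0.0574 to 0.0667). When the vehicle arrays were not fitted, Mrpl42 and Mrpl53 lost their calls too (0.055 and 0.0515). With the mean of all its probe sets, Mrpl50 was at -0.28 (adjusted p = 0.155).

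The other genes of mitochondrial protein synthesis were counted from lists. In CMS50 against vehicle 31.1% of all genes tested were called, beside 25.0% of translation factors, 6.25% of aminoacyl-tRNA synthetases, 10.8% of assembly and RNA processing genes and 6.67% of those for mitochondrial DNA. The share was 20.0% in the list of further ribosome proteins, and 44.4% among regulators, which was above that of all genes. Of 5 further ribosome proteins without an Mrp symbol, 1 rose in CMS50 against vehicle. This was Dap3, a GTP-binding protein of the small subunit, at 8.01, 7.94 and 8.04 in vehicle, 8.06, 8.23 and 7.95 in CMS25 and 8.40, 8.55 and 8.24 in CMS50 (change 0.40, SE 0.11, adjusted p = 0.0218). The call was lost without vehicle replicate 1 or 2 or CMS50 replicate 1 or 2, where 0 of the 5 were called. Ptcd3, Chchd1, Aurkaip1 and Gadd45gip1 differed by 0.01, -0.05, -0.14 and -0.02 (adjusted p = 0.368 to 0.979).

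Among 12 mitochondrial translation factors 1 rose and 2 fell (median -0.07). Gfm1, an elongation factor that moves the ribosome along the message, fell by 0.48 (SE 0.15, adjusted p = 0.0403), and Mrrf, which releases ribosomes for reuse, fell by 0.47 (SE 0.15, adjusted p = 0.0452). Oxa1l, which inserts new chains into the inner membrane, rose by 0.46 (SE 0.09, adjusted p = 0.00813). Only 1 of the 12 was called without any 1 of the vehicle arrays or CMS50 replicate 1 or 2. Of 16 mitochondrial aminoacyl-tRNA synthetases, which charge transfer RNAs with amino acids, 1 rose and 0 fell (median 0.02), namely Fars2, for phenylalanine, at 0.37 (SE 0.09, adjusted p = 0.0161). That count was 0 without vehicle replicate 2 or CMS50 replicate 2, and 2 without vehicle replicate 1, CMS25 replicate 2 or 3 or CMS50 replicate 3. It was 5 with array weights, where 40.8% of all genes tested were called, and 2 after cyclic loess or centring.

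Of 37 genes of ribosome assembly and mitochondrial RNA processing 1 rose and 3 fell (median -0.09). Hsd17b10, a dehydrogenase that is also a subunit of mitochondrial ribonuclease P, read 11.68, 11.98 and 11.86 in vehicle and 10.86, 11.02 and 11.31 in CMS50, a fall of 0.78 (SE 0.13, adjusted p = 0.00367). Mterf3, a protein needed for ribosome assembly, and the transfer RNA modifying enzyme Mto1 fell by 0.43 and 0.36, and Mpv17l2, an inner membrane protein tied to ribosome assembly, rose by 0.46 (adjusted p = 0.0149, 0.0227 and 0.0116). Without vehicle replicate 2 or CMS50 replicate 1, 2 of the 37 were called, and 7 without CMS50 replicate 3. With array weights 11 were called, and 8 after cyclic loess, where 40.8% and 29.7% of all genes tested were called.

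Of 15 genes that maintain and transcribe mitochondrial DNA 0 rose and 1 fell (median -0.03). This was Tfb2m, a transcription factor that helps the mitochondrial RNA polymerase start, at 9.10, 9.18 and 9.12 in vehicle and 8.34, 8.44 and 8.57 in CMS50 (change -0.69, SE 0.09, adjusted p = 0.00215). Without CMS25 replicate 1, 2 of the 15 were called, and centring gave 3. Among 9 regulators of mitochondrial gene expression 3 rose and 1 fell (median -0.04). Myc, a growth regulator, rose by 2.28 (SE 0.34, adjusted p = 0.00303), the coactivator Pprc1 by 0.84 and the factor Nrf1 by 0.32, while the coactivator Ppargc1b fell by 0.48 (adjusted p = 0.0185, 0.0294 and 0.0373). The count of 4 was 1 without vehicle replicate 2 or CMS50 replicate 1 or 2, and 2 with an intensity minimum of 6. At that minimum Pprc1 and Nrf1, with group means of 5.24 to 6.33 and 5.58 to 5.90, were not tested.

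**Figure D3:**
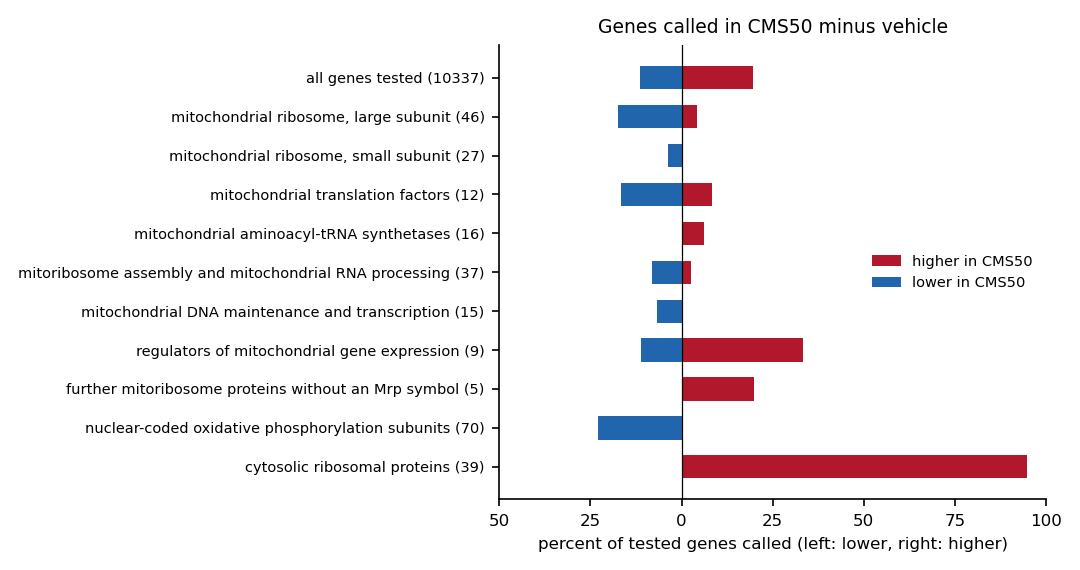
Percent of the tested genes of each list that were called in CMS50 minus vehicle, with rises to the right of 0 and falls to the left, and the number of genes tested in brackets. The large subunit had 17.4% lower and 4.35% higher, the small subunit 3.70% lower, and the cytosolic ribosomal proteins 94.9% higher.

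Values of the cytosolic ribosome and of the respiratory chain stood on either side of these genes. Of 39 cytosolic ribosomal proteins, which build the ribosome outside mitochondria, 37 rose and 0 fell in CMS50 against vehicle (94.9%, beside 19.6% of all genes called higher), with a median of 0.54 and a range of 0.22 to 0.90. Rpl3 read 12.23, 12.24 and 12.32 in vehicle and 13.27, 13.35 and 12.88 in CMS50 (change 0.90, SE 0.13, adjusted p = 0.00262), and Rps28, Rpl12 and Rps24 rose by 0.85, 0.83 and 0.80. Of 70 nuclear-coded subunits of the oxidative phosphorylation complexes 16 fell and 0 rose, with a median of -0.19 and a range of -0.65 to 0.09. The share called lower was 22.9%, beside 11.4% of all genes tested, and 31.1% of all genes were called in either direction. The succinate dehydrogenase subunit Sdhd fell by 0.65 and the complex I subunits Ndufb8 and Ndufs1 by 0.63 and 0.53 (adjusted p = 0.0063, 0.00551 and 0.0217). In CMS25 minus vehicle 0 genes of either list were called. Whether the mitochondrial ribosome differs from these lists was not tested.

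The count of 16 depended on single arrays and on scaling. It was 7, 4 and 8 without vehicle replicates 1, 2 and 3, 4 without CMS50 replicate 1 or 2, and 31 without CMS50 replicate 3. It was 9 after cyclic loess, 36 after centring and 34 with array weights. Over all genes tested, 29.7%, 29.9% and 40.8% were called in the same order, and 1441, 1638 and 1661 genes were called lower. The count of 37 cytosolic genes ran from 27 to 39 over the alternatives.

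**Figure D4:**
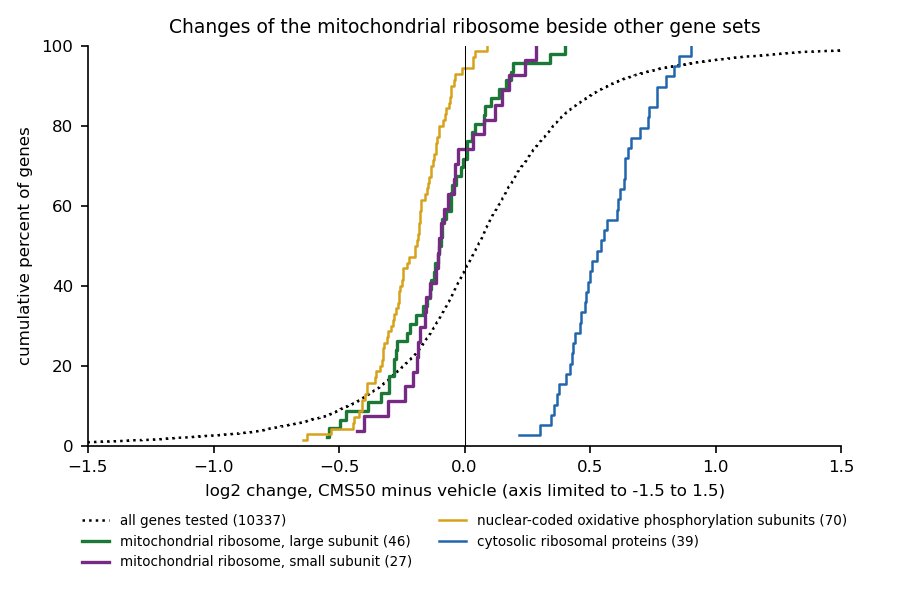
Cumulative percent of genes by log2 change in CMS50 minus vehicle, for all genes tested, both subunits of the mitochondrial ribosome, oxidative phosphorylation subunits and cytosolic ribosomal proteins. The curves of both mitochondrial subunits cross 50% near -0.10, that of oxidative phosphorylation at -0.19 and that of the cytosolic ribosome at 0.54.

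By array, the median difference of large subunit genes from their vehicle means was -0.14, -0.12 and -0.04 in CMS50 replicates 1, 2 and 3, and -0.03, -0.07 and 0.02 in the CMS25 replicates. For the small subunit the CMS50 values were -0.14, -0.07 and -0.04, and the CMS25 values were 0.00, -0.05 and 0.02. The lowest CMS25 array thus lay below the highest CMS50 array in both subunits. For oxidative phosphorylation the CMS50 medians were -0.27, -0.28 and -0.08, and for the cytosolic ribosome 0.59, 0.66 and 0.38. In each of these 4 lists CMS50 replicate 3 was the array nearest to vehicle.

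**Figure D5:**
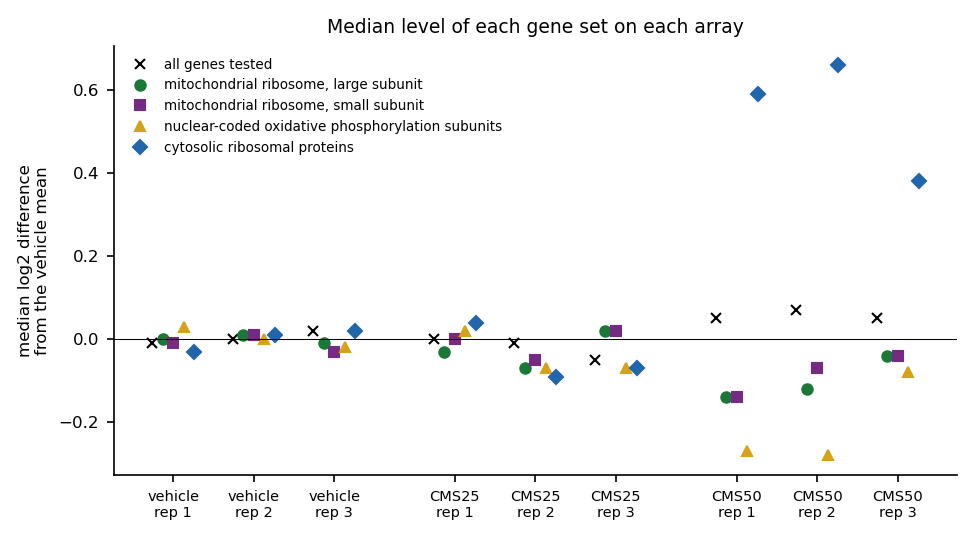
Median log2 difference of each list from its vehicle means, on each of the 9 arrays. Vehicle arrays lie between -0.03 and 0.03, the mitochondrial subunits of the CMS50 arrays between -0.14 and -0.04, and the cytosolic ribosome of the CMS50 arrays between 0.38 and 0.66.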

How the data were processed

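Kidney RNA of 9 rats was read on Affymetrix rat 3′ expression arrays, 1 per rat. The authors deposited log2 intensities. The submitters' processing notes name RMA and Affymetrix's Expression Console, and versions are not given in the sources used here. This method makes the distributions of the arrays alike, so a shift of all genes together cannot be seen. The table held 31099 probe sets with 0 missing values and was used as deposited by the authors. Probe sets were named through the array's platform annotation. Of 31042 probe sets other than controls, 20826 had 1 symbol, 436 several and 9780 none. For each gene the probe set with the highest mean was kept, if that mean was at least 5.

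All 9 arrays entered 1 limma fit by group (lmFit, eBayes, no trend, version 3.58.1, R 4.3.3), with Benjamini-Hochberg adjustment over 10337 genes and a threshold of 0.05. Intervals are 95% intervals of that fit. The number of rats limits the precision. The fit was tested on simulated arrays with independent noise and few changed genes, and no result here rests on that test. Named genes were the members called in each contrast (up to 12 rises and 12 falls against vehicle, up to 6 and 6 in the others), a panel of members with known roles, and up to 4 called genes of each list. The members, lists, roles and tests were chosen with earlier results of these data known. Promoter windows came from RefSeq (GRCr8). Alternatives changed how arrays were scaled, weighted or blocked, the intensity minimum, the choice of probe set, the variance estimate, which groups were fitted and the subunit of 2 genes, or left out each array in turn, with the probe sets and the minimum kept from the 9 arrays. Figures were drawn with matplotlib 3.10.9 in Python 3.11.15.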

Additional observations from a re-analysis of the deposited data

How the results depend on the processing

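The counts of CMS25 minus vehicle stayed at 0 in all alternatives, and no result turned its sign at a called value. In CMS50 minus vehicle the count of large subunit genes, 10 as reported, was 5 to 12 with 1 array left out and 8 to 12 otherwise. That of small subunit genes, 1 as reported, was 2 after cyclic loess, 3 with arrays centred, 2 with a minimum of 6, 3 with the mean of all probe sets, 2 with a trended robust variance and 6 with array weights, and 0 to 4 with 1 array left out. In CMS50 minus CMS25 the large count of 10 was 5 when the vehicle arrays were not fitted, 4 to 10 with 1 array left out and 8 to 15 otherwise. The small count of 2 was 4 after cyclic loess, 6 with arrays centred, 4 with a trended robust variance, 1 when the vehicle arrays were not fitted, and 1 to 4 with 1 array left out. The cause of these moves was not tested. With array weights, calls over all genes in CMS50 minus vehicle numbered 4216 (40.8%) in place of 3211 (31.1%).

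Centring moved the medians of CMS50 minus vehicle to -0.18 (large) and -0.19 (small), those of CMS50 minus CMS25 to -0.21 and -0.21, and those of CMS25 minus vehicle to 0.02 and 0.04. For the small subunit cyclic loess gave 0.04 in CMS25 minus vehicle and -0.13 in CMS50 minus CMS25, and the mean of probe sets -0.11. With 1 array left out, the small medians ran from -0.14 to -0.07, from -0.05 to 0.02 and from -0.13 to -0.03 in CMS50 minus vehicle, CMS25 minus vehicle and CMS50 minus CMS25. In all genes, calls in CMS50 minus vehicle were 2028 higher and 1183 lower as reported, 1457 and 1638 after centring and 1631 and 1441 after cyclic loess. In CMS50 minus CMS25 they were 2153 and 975, 1307 and 1870, and 1571 and 1431. Centring moved the median change of all genes in CMS50 minus CMS25 from 0.07 to -0.06, and that in CMS50 minus vehicle from 0.05 to -0.03.

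Arrays of the same replicate number did not pair: correlations of their deviations from the group means ran from -0.183 to 0.263. With the replicate block, 10 large and 1 small subunit genes were called in CMS50 minus vehicle, and 9 and 1 in CMS50 minus CMS25, and Mrpl53 lost its call against vehicle (adjusted p = 0.0574). With 3 rats a group, the median standard error of a change in CMS50 minus vehicle was 0.093 over the 73 genes, and the median 95% interval reached 0.210 to either side.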
